A study of Mus musculus with 15 samples.

Results

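Espn, Agmat, Batf3, Ass1, Tcap, Gstt1 and Igfbp6 are 7 of the 26145 genes in single cell RNA-seq of mouse prefrontal cortex (PFC). They were chosen by symbol, as genes with higher levels in P60 than in P21 neurons, so their difference with age in neurons is a description of how they were picked and is given with no test. All samples came from male C57BL/6N mice. The adult groups, labelled 8 to 10 weeks and called P60 by the study, had been trained to self-administer saline or cocaine through a jugular catheter (intravenous self-administration, IVSA). They were taken at the end of maintenance, after 48 h of withdrawal or after 15 days of withdrawal, with 2 libraries in each of the 6 combinations of agent and period. The P21 group, labelled 3 weeks, had 3 libraries from mice with no IVSA phase, so age and IVSA history changed together between P21 and P60. Each adult library pooled tissue from a pair of mice, and spread between libraries is therefore spread between pools.

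These genes belong to different pathways. Ass1 (argininosuccinate synthase) joins citrulline and aspartate on the way to arginine, from which nitric oxide can be made, and Agmat (agmatinase) belongs to the family of enzymes that cleave agmatine, a decarboxylated form of arginine, to putrescine. Gstt1 is a theta-class glutathione transferase, an enzyme that joins glutathione to reactive compounds. Espn (espin) bundles actin filaments and is known from the stereocilia of hair cells, and Tcap (telethonin) caps titin at the Z-disc of striated muscle. Batf3 is a basic leucine zipper transcription factor that pairs with Jun proteins and is known from dendritic cells. Igfbp6 is a secreted binding protein with a preference for insulin-like growth factor 2.

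Each symbol had 1 row in the files. In the NCBIM37 annotation, which is the mm9 build that the submitters' processing notes name, Ass1 spans chr2:31325727-31376192 on the plus strand. Gstt1 spans chr10:75246558-75261329 on the minus strand, Agmat chr4:141302587-141315178 on the plus strand and Espn chr4:151494440-151526480 on the minus strand. Batf3 spans chr1:192922293-192932822, Tcap chr11:98245125-98246267 and Igfbp6 chr15:101974793-101979942, all on the plus strand. All 7 are protein-coding genes that no other annotated gene overlaps. Because each molecule was counted near the 3′ end of its transcript, neighbours at that end matter: Tnfrsf25, on the opposite strand, ended 212 bases from the end of Espn, and no other gene lay within 300 bases of the 3′ end of a gene of the set. The end of the Ass1 transcript also matched 1 other place in the genome at 95% identity or more, so some of its reads could have been lost or shared.

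The 250 bases before the transcription start are shown for 4 of the genes, as the sequence in which motifs were searched. RefSeq (GRCm38.p6) gave promoter windows for 6 of the 7 genes, 9 windows in all. Capitals mark CACGTG (an E-box), GGGCGG (a GC box) and CCAAT (or ATTGG, the same box on the other strand), searched on both strands. The Ass1 and Batf3 windows lie at chr2:31470020-31470269 and chr1:191098164-191098413 on the plus strand, that of Agmat at chr4:141746425-141746674 on the plus strand and that of Gstt1 at chr10:75797732-75797981 on the minus strand.
Ass1: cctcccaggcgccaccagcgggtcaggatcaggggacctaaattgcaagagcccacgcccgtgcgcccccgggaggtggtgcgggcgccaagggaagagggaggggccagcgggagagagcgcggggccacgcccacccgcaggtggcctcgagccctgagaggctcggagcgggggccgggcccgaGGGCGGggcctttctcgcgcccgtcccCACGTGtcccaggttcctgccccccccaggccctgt
Batf3: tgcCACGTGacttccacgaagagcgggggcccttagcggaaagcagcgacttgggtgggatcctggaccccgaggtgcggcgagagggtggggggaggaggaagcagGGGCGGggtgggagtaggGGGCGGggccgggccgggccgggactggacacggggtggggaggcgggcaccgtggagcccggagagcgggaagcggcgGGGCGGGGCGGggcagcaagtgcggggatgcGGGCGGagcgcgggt
Agmat: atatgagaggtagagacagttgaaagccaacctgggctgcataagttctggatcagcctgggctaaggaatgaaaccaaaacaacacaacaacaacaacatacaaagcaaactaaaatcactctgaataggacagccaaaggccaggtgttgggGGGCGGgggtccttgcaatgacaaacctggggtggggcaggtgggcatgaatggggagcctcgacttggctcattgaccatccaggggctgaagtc
Gstt1: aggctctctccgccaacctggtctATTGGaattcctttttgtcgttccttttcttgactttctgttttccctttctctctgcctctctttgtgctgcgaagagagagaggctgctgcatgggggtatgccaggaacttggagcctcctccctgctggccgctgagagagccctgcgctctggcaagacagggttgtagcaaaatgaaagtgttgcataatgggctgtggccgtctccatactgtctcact
An E-box began 36 bases before the start of Ass1 and 247 bases before that of Batf3, and 6.021% of the 32851 mouse windows of this length held one. A GC box stood in the windows of Ass1, Batf3, Agmat and Espn and in 32.742% of all windows. A CCAAT box stood in those of Gstt1, Espn and Igfbp6 and in 33.85% of all windows. The letters TGANTCA, a site bound by pairs of Jun and Batf or Fos proteins, were in none of the 9 windows and in 6.749% of all windows. Nor were TGACGTCA (a cyclic AMP response element, 1.546% of windows), TGACNNNGC (the core of the antioxidant response element, 10.161%) or TATTTATAG (a MEF2 core, 0.408%). TATAAA stood in the window of Igfbp6, on the minus strand, and in 12.368% of all windows. The G and C share was 75.6% in the printed Ass1 window, 76.0% in that of Batf3, 51.2% in that of Agmat and 52.8% in that of Gstt1. The GC boxes of Batf3 overlapped in 1 place, and no motif searched stood in all 9 windows.

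After the study's own cell filter, 35360 cells were kept in 15 libraries, with 8375172 to 42892922 UMIs (unique molecular identifiers, counts of molecules) per library. UMIs were summed per library over each cell class and divided by the class total to give CPM (UMIs per 1000000 UMIs of the class), with RNA of mitochondria and of ribosomal proteins set aside. CPM here compares libraries or cell types for 1 gene, never 1 gene with another. Excitatory neurons numbered 5934 at P21, 6707 in P60 saline libraries and 7736 in P60 cocaine libraries. Their marker Slc17a7 was at 302 to 669 CPM per library and the summed markers of inhibitory neurons (Gad1, Gad2, Slc32a1) reached at most 10.5 CPM. Inhibitory neurons were fewer, 962, 563 and 628 cells, with 2326 to 4802 CPM of their own markers. P21 excitatory cells were shallower, with library medians of 7345 to 11457 UMIs per cell against 11810 to 16487 at P60. Any pair of libraries shared at most 27 cell barcodes. The study describes placing P21 cells in its adult clusters by their correlation with the adult cells. Levels and cell shares of clusters at P21 therefore rest on labels carried over from P60.

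In excitatory neurons, 6 of the 7 genes lay higher in every P60 saline library than in any P21 library. Of all 12438 genes at a mean of 1 CPM or more, 14.2% did so, and since these genes were picked for this contrast nothing is read from the 2 shares. Tcap was the exception. Ratios of mean CPM, P60 saline over P21, ran from 1.66 for Tcap to 25.6 for Espn.

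**Figure D1:**
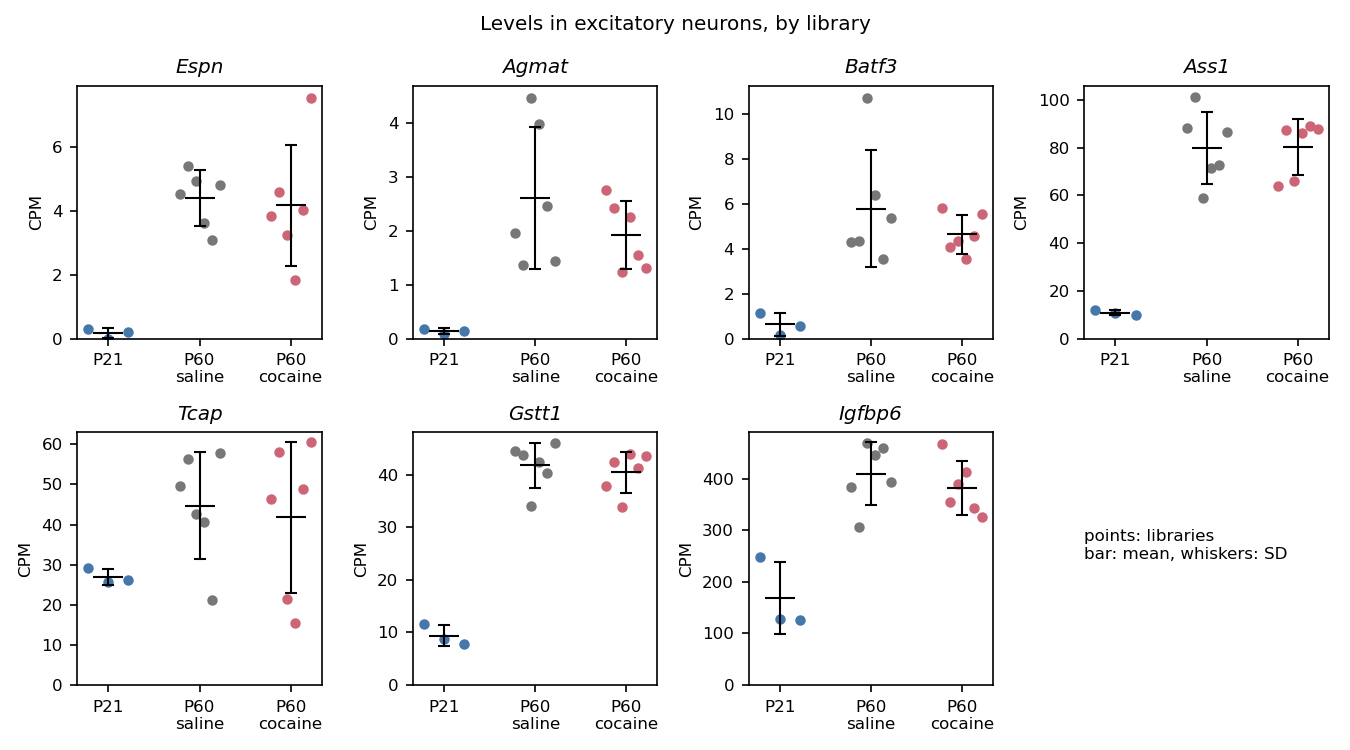
CPM of each gene in excitatory neurons by library at P21 (3 libraries), P60 saline (6) and P60 cocaine (6). Points are libraries, bars the mean and whiskers the SD. Tcap is the gene whose P60 libraries reach below the P21 libraries, down to 15.5 CPM.

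Ass1 and Agmat are the genes of arginine metabolism in the set. Ass1 stood at 12.0, 10.5 and 9.86 CPM in the 3 P21 libraries. The 6 P60 saline libraries ranged from 59.1 to 101 CPM with a median of 79.6, and the cocaine libraries from 64.0 to 89.2 with a median of 86.7. All 12 adult libraries were thus far above the 3 younger ones, at a saline mean of 80.0 ± 15.0 (SD, n = 6) against 10.8 ± 1.12 (n = 3), a ratio of 7.40. Agmat was scarce, with 8 UMIs in all 5934 P21 cells and 186 in the 6707 saline cells. Its P21 libraries held 0.186, 0.0779 and 0.145 CPM and its saline libraries 1.37 to 4.48 with a median of 2.22, a ratio of means of 19.2. With cells thinned to 2000 UMIs that ratio was 49.7, and with equal weight on each excitatory cluster 12.2. After thinning, Agmat was in 0 to 0.0403% of the P21 cells of a library, so the 49.7 rests on very few UMIs. The SD of Agmat at P60, 1.32 CPM around a mean of 2.62, was wide beside its level.

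Gstt1 varied little among adult libraries. It held 11.6, 8.72 and 7.76 CPM at P21 and 34.0 to 46.0 CPM in the saline libraries, with a median of 43.0. The mean was 41.8 ± 4.28 (SD, n = 6) against 9.37 ± 2.02 (n = 3), a ratio of 4.46. Igfbp6 held 248, 129 and 127 CPM at P21, so that 1 P21 library stood well above the other 2. The saline libraries ranged from 306 to 468 CPM with a median of 420, a ratio of means of 2.44.

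Espn was all but absent at P21, with 11 UMIs in 5934 cells and 0.297, 0 and 0.218 CPM in the 3 libraries. At P60 the saline libraries ranged from 3.08 to 5.41 CPM with a median of 4.66, a ratio of 25.6. Leaving out 1 P21 library at a time moved that ratio between 17.1 and 40.4. Batf3 held 1.15, 0.156 and 0.580 CPM at P21 and 3.57 to 10.7 CPM at P60 saline, with a median of 4.87 and a ratio of 9.20, or 15.7 without the P21 library at 1.15 CPM. For both genes the groups did not overlap, although 1 maintenance library of saline mice held the highest Batf3 level by a wide margin over the next, at 6.40 CPM.

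Tcap behaved differently from the other 6. Its P21 libraries held 29.3, 25.6 and 26.2 CPM and its saline libraries 21.3 to 57.8 with a median of 46.1, a ratio of 1.66 with overlapping groups. Without the saline library at 21.3 CPM the ratio was 1.83 and the groups did not overlap. Among the cocaine libraries the lowest held 15.5 CPM and the highest 60.5. When each excitatory cluster was given the same weight, Tcap stood at 43.5 ± 9.45 CPM (SD, n = 6) at P60 and 42.0 ± 3.08 (n = 3) at P21, a ratio of 1.03. Each library was averaged over the clusters in which it had at least 10 cells, so the sets differed between libraries. The other 6 genes kept ratios of 2.33 to 21.8 under that weighting. The share of excitatory cells in the 7 clusters with the most Tcap (Exc_10, 11, 23, 6, 17, 16 and 8) moved with the class level. It was 14.8% ± 0.471 (SD, n = 3) at P21, 27.4% ± 5.50 (n = 6) in saline and 26.8% ± 8.21 (n = 6) in cocaine libraries. The equal weighting changed the weight of all the clusters at once, and the part of this share in the class difference was not tested.

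The share of cells with at least 1 UMI moved the same way. Ass1 was found in 7.95% ± 2.26 (SD over 3 libraries) of P21 excitatory cells and in 46.3% ± 5.73 (over 6) of P60 saline cells. Mature oligodendrocytes, shallower cells that served as the background, gave 1.77% and 2.06%, at depths (median over libraries of the median cell) of 5011 and 3373 UMIs against 8427 and 13785 in excitatory neurons. With every cell thinned to 2000 UMIs, which left out 14 of the 5934 P21 cells, the Ass1 shares were 1.95% and 12.1% in excitatory neurons and 1.40% and 0.778% in oligodendrocytes. Igfbp6 was in 42.9% of P21 and 78.1% of P60 saline excitatory cells, and in 19.9% and 46.1% after thinning. Its background in oligodendrocytes was 2.45% and 4.26%, or 0.881% and 1.66% thinned. For Tcap the shares were 11.3% and 23.3% unthinned and 3.68% and 6.75% thinned, over a background of 0.766% and 1.04% unthinned and 0.766% and 0.521% thinned. Espn, Agmat and Batf3 were each in at most 0.515% of P21 and 5.46% of P60 saline excitatory cells, and in at most 0.0939% and 0.208% of oligodendrocytes.

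In inhibitory neurons 3 of the 7 genes were higher in every P60 saline library than at P21, and Tcap was lower in all of them. The share of all genes at 1 CPM or more that were higher in this way was 5.79% of 12806. Ass1 held 61.4, 45.2 and 39.3 CPM at P21 and 106 to 162 CPM in saline libraries, with a median of 142 and a ratio of means of 2.81. Gstt1 held 5.98, 3.35 and 5.04 CPM at P21 and 14.8 to 37.8 at P60, with a median of 24.3 and a ratio of 5.63. Igfbp6 held 7.18, 6.70 and 5.54 CPM and then 10.8 to 46.3, with a median of 23.7 and a ratio of 4.04. Groups of all 3 genes stood apart. With cells thinned to 2000 UMIs the groups of Gstt1 (ratio 3.20) and Igfbp6 (2.74) overlapped. With equal weight on the 5 inhibitory clusters that had at least 10 cells in 2 or more libraries of each age, the ratio was 4.42 for Ass1 and 3.29 for Gstt1, with groups apart, and 1.51 for Igfbp6, with groups that overlapped. Each library averaged only those of the 5 in which it had at least 10 cells, so these ratios compare partly different clusters. The excitatory marker Slc17a7 in these same inhibitory cells was at 9.50 to 35.9 CPM at P21 and 0 to 69.4 CPM in saline libraries, and its part in the Igfbp6 difference was not tested. Espn, Agmat and Batf3 had at most 9 UMIs at either age, too few to place.

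Tcap in inhibitory neurons stood at 78.9, 64.2 and 76.0 CPM at P21 and at 7.42 to 51.8 CPM in the saline libraries, with a median of 35.7 and a ratio of 0.462. This again moved with a cluster. Inhib_6 held 162 of the 962 P21 inhibitory cells and 324 of their 464 Tcap UMIs (69.8%), but 22 of the 563 saline cells and 22 of their 189 Tcap UMIs (11.6%). Within Inhib_6 Tcap was at 324 ± 105 CPM (SD, n = 3) at P21 and at 95.5 CPM in the 1 saline library with at least 10 such cells. Of the 3 inhibitory clusters with enough cells in several saline libraries, Tcap was lower at P60 in Inhib_2 (4.53 against 22.01 CPM) and Inhib_9 (11.02 against 20.97 CPM), with overlapping libraries in both. It was higher in Inhib_7, at 70.5 ± 15.1 CPM (n = 4) against 4.08 ± 7.06 (n = 3), where 131 saline UMIs stood against 4 at P21. With equal weight on the same 5 clusters, which do not include Inhib_6, Tcap was at 34.5 ± 13.9 CPM (n = 4) at P60 and 11.5 ± 5.00 (n = 3) at P21, a ratio of 3.01 that turns the direction of the class. Libraries held different sets of these clusters, and the part of this in the ratio was not tested.

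Within the 26 excitatory clusters, whose labels were carried over from P60 to the P21 cells, the direction was the same throughout for 3 genes. Ass1, Gstt1 and Igfbp6 had a higher mean at P60 saline than at P21 in all 26, and every saline library lay above every P21 library in 25, 22 and 21 of them. Some clusters compared few libraries, such as 3 of saline in Exc_18 and 2 of P21 in Exc_11. The genes were picked for this contrast and the share of all genes within clusters is not given. Nothing is therefore read from the counts of clusters here and below. In the clusters with more than 3 UMIs at P21, the median ratio of Ass1 was 8.61 over 17 clusters (1.94 to 40.9), that of Gstt1 4.43 over 24 clusters (2.38 to 7.62) and that of Igfbp6 2.12 over 26 (1.64 to 6.09). Ass1 had the widest span of the 3, from 1.94 to 40.9 in Exc_9, where 7 UMIs in 508 P21 cells stood against 143 in 195 saline cells. That restriction leaves out clusters where Ass1 was nearly absent at P21. Over every cluster with a P21 UMI its median ratio was 14.2 and its highest 145, in Exc_8, from 1 P21 UMI.

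The scarce genes were uneven. Espn was higher in 21 clusters, lower in 1 and without a UMI at either age in 4. Batf3 was higher in 20, lower in 5 and absent in 1, and Agmat higher in 13, lower in 2 and absent in 11. In Exc_2, where both were highest, Batf3 had 2 UMIs in 251 P21 cells and 81 in 196 saline cells, and Agmat had 3 and 69. Espn had no UMI in the 93 P21 cells of Exc_10 and 58 in the 455 saline cells. With the P21 level set at the floor of 3 UMIs over the group, that is at least 2.79-fold higher.

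Tcap was higher at P60 in 16 clusters and lower in 9, with no cluster in which all saline libraries lay above all P21 libraries and 1 in which they lay below. Over its 18 clusters with more than 3 P21 UMIs the median ratio was 1.03 (0.327 to 3.90). In Exc_10, its highest cluster, the mean was 152 CPM at P60 saline and 164 CPM at P21.

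**Figure D2:**
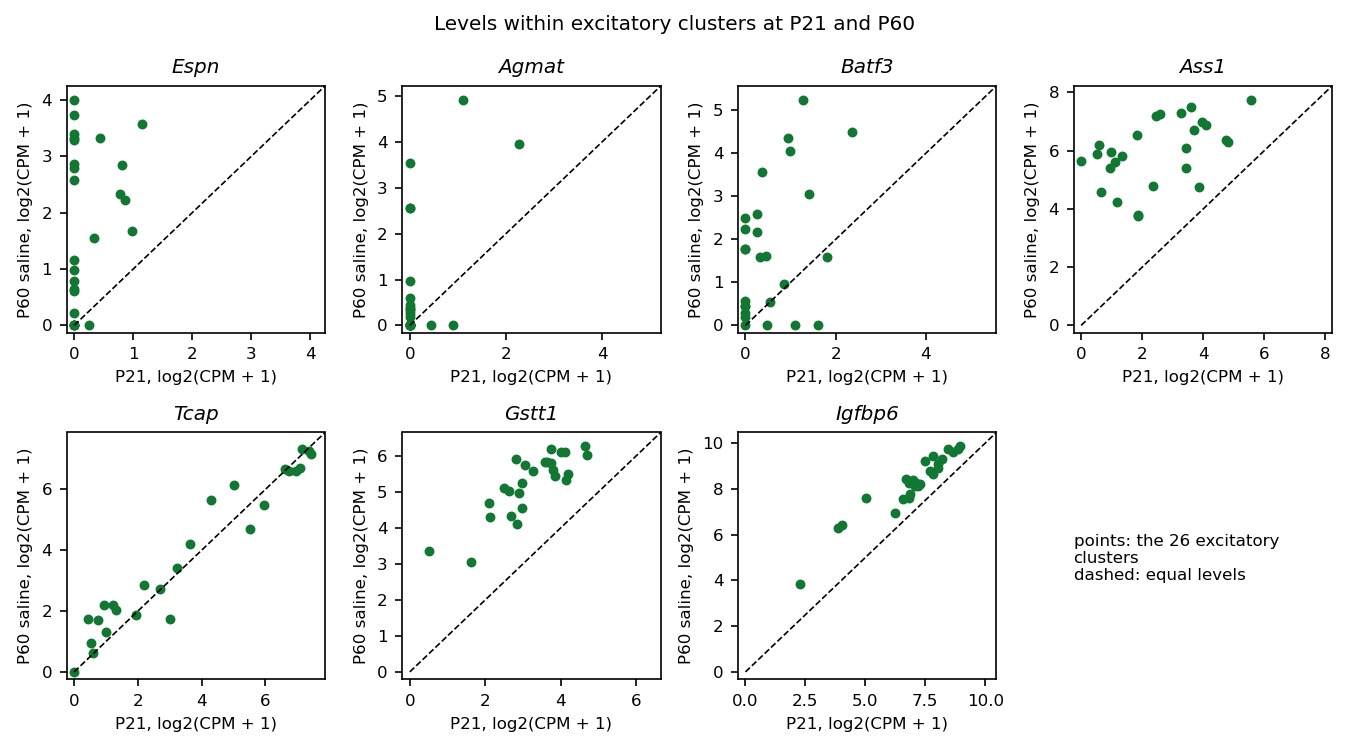
Mean level of each gene in the 26 excitatory clusters, P21 on the x axis and P60 saline on the y axis, both as log2(CPM + 1), with the dashed line marking equal levels. Ass1, Gstt1 and Igfbp6 lie above the line in all 26 clusters, and Tcap in 16.

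At P60 the genes were highest in partly different and partly shared clusters, among the 31 neuronal clusters with enough cells. Clusters were made by the study from these counts, so their order is a description. Igfbp6 was highest in Exc_2 at 919 ± 58.5 CPM (SD, n = 12), then Exc_5 at 865, Exc_1 at 828 and Exc_13 at 766 CPM, each step smaller than the spread. It fell to 15.7 CPM in Exc_21 and 6.65 CPM in Inhib_7. Agmat was the most restricted, with 32.1 ± 12.2 CPM (SD, n = 12) in Exc_2 and 15.3 ± 7.41 (n = 11) in Exc_1, a step that held in 11 of 11 libraries and was larger than the spread. It followed with 9.51 CPM in Exc_5 and 3.62 CPM in Exc_9, and in 12 of the 31 clusters it had no UMI. Batf3 was also led by Exc_2, at 39.6 ± 23.9 CPM, followed by Exc_5 (19.4), Exc_22 (18.3) and Exc_1 (17.4), which did not differ beyond their spread.

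Exc_10 and Exc_11 led for both Tcap and Espn. Tcap was highest in Exc_10 at 159 ± 49.0 CPM (SD, n = 12), Exc_11 at 158 ± 35.7 (n = 11) and Exc_23 at 143 ± 45.4 (n = 12), and lowest in Exc_20 at 0.571 CPM. Espn was highest in Exc_11 at 14.5 ± 6.34 CPM (n = 11), Exc_10 at 13.2 ± 5.35 (n = 12) and Exc_8 at 10.97 ± 4.59 (n = 11). Inhib_2 came next for Espn, at 10.3 ± 9.22 CPM (n = 6). For both genes these neighbours did not differ beyond their spread.

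Ass1, Gstt1, Tcap and Igfbp6 had UMIs in all 31 clusters. Ass1 led in Inhib_9 at 220 ± 37.5 CPM (SD, n = 6), Exc_21 at 205 ± 24.3 (n = 12), Inhib_2 at 171 ± 65.6 (n = 6) and Exc_15 at 166 ± 35.0 (n = 8), and ended in Exc_4 at 14.6 CPM. Exc_21, where Ass1 was near its highest, was the excitatory cluster with the least Igfbp6. Gstt1 ranged least, from 68.8 ± 19.3 CPM (n = 11) in Exc_8 to 6.40 CPM in Exc_26.

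**Figure D3:**
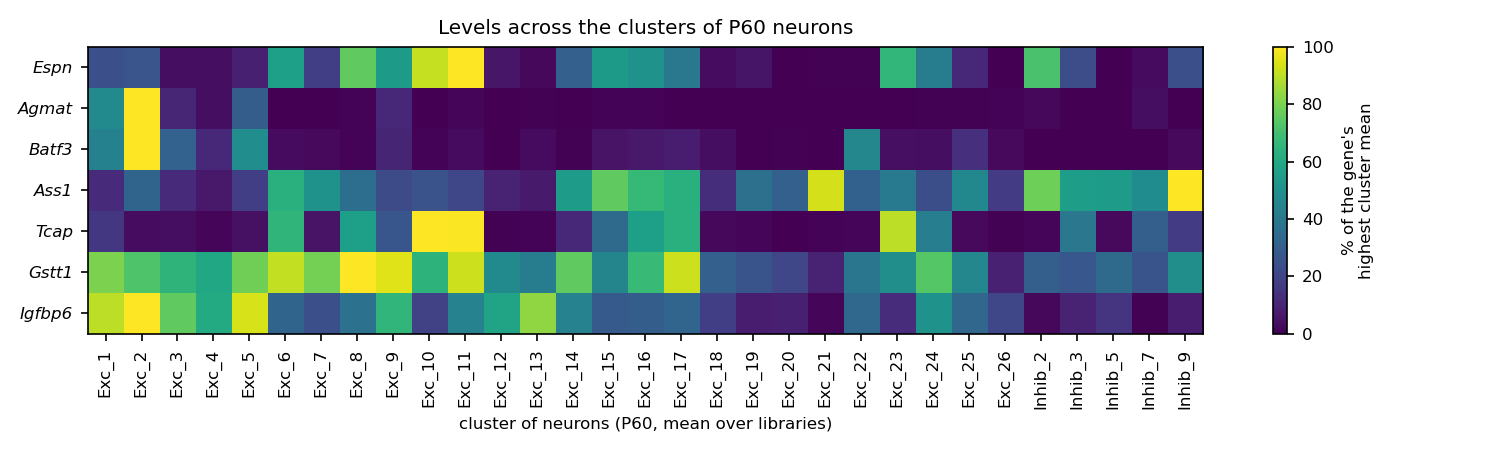
Mean CPM over P60 libraries in each neuronal cluster, shown for each gene (rows) as a percentage of its highest cluster mean (colour). Agmat, Batf3 and Igfbp6 peak in Exc_2, Espn and Tcap in Exc_10 and Exc_11, and Ass1 in Inhib_9 and Exc_21.

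Over 33 P60 neuronal clusters with at least 50 cells, the Pearson correlation of log2(CPM + 1) was 0.73 for Agmat and Batf3, 0.69 for Espn and Tcap, 0.64 for Batf3 and Igfbp6 and −0.55 for Ass1 and Igfbp6. Clusters share libraries and differ in depth, so these values are descriptions. Of 9897 genes with a mean of at least 5 CPM, those most like Igfbp6 were Schip1 (0.92) and Sorbs2 (0.90). The closest to Agmat were Tsnax (0.88) and Lpl (0.83), and Tsnax was also closest to Batf3 (0.79). Ass1 was nearest to Impact (0.86) and Zcchc18 (0.81), Tcap to Arf2 (0.84) and B2m (0.83), Gstt1 to Ptpla (0.84) and A830082K12Rik (0.82), and Espn to Sac3d1 (0.81) and Coch (0.80).

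Outside neurons, some of the genes were at home in glia and vessels. At P60 Gstt1 was higher in oligodendrocyte precursors (114 ± 32.3 CPM, SD, n = 11), astrocytes (107 ± 24.3, n = 11) and the endothelial class, which also held pericyte RNA (64.6 ± 15.5, n = 12) than in excitatory neurons (41.1 ± 3.96, n = 12). Ass1 was at 106 ± 28.5 CPM (n = 11) in astrocytes, between inhibitory neurons (135 ± 20.6, n = 12) and excitatory neurons (80.0 ± 12.9, n = 12). Batf3 was highest in microglia, at 22.01 ± 8.33 CPM (n = 12) against 5.22 ± 1.95 in excitatory neurons. Espn, Agmat, Tcap and Igfbp6 were highest in excitatory neurons, and mature oligodendrocytes held a mean of at most 13.7 CPM of any of the 7.

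Age in the non-neuronal classes was not part of how the genes were picked, and was tested with edgeR's quasi-likelihood test on summed counts, P60 saline minus P21. A gene was called at an adjusted p below 0.05 and a change over 1.5-fold. Of 35 combinations of gene and class, 7 had enough counts to test and 2 were called, both in endothelial cells. Libraries of 1 age alone could supply enough counts, so the tested set may lean to genes high at P60. The share of all tested genes called higher at P60 was 5.31% in endothelial cells, 7.55% in mature oligodendrocytes, 0.746% in newly formed oligodendrocytes, 0.121% in astrocytes and 0.025% in microglia. Oligodendrocyte precursors could not be tested, with 41 cells at P21.

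Gstt1 in endothelial cells held 6.06, 8.82 and 8.92 CPM at P21, 43.1 to 74.2 CPM in saline libraries with a median of 62.6, and 49.8 to 98.2 CPM in cocaine libraries. It rose by 2.75 on the log2 scale (SE 0.236, edgeR adjusted p = 2.34e-06). Ass1 held 16.1, 11.3 and 12.6 CPM at P21 and 42.8 to 62.0 CPM in saline libraries with a median of 52.2, a rise of 1.82 (SE 0.174, edgeR adjusted p = 5.59e-06). Every adult library lay above every P21 library for both genes, the lowest Ass1 value, 17.9 CPM, being in a cocaine library. The class held 2032 cells at P21, 1856 in saline and 1708 in cocaine libraries.

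The endothelial class also held RNA of other vessel cells. The summed pericyte and smooth muscle markers (Kcnj8, Rgs5, Acta2 and Vtn, 4 of 4 detected) were 4036 to 5127 CPM at P21 and 5224 to 7497 CPM in saline libraries. Those of endothelial cells (Flt1, Cldn5, Pecam1) were 3645 to 8606 and 3881 to 5290 CPM. The summed neuron markers (Snap25, Syt1, Rbfox3) were 128 to 189 CPM at P21 and 54.8 to 623 CPM in saline libraries, and those of astrocytes (Gja1, Aqp4, Slc1a3) 127 to 159 and 57.6 to 117 CPM. Over the 13 endothelial clusters of P60, mean Ass1 ran from 23.5 to 58.8 CPM and mean Gstt1 from 14.9 to 113 CPM. Gstt1 was highest in Endo_4, Endo_5 and Endo_6 (101 to 113 CPM), the clusters with the most of the pericyte markers Vtn (6133 to 6992 CPM) and Kcnj8 (592 to 694 CPM). It was lowest in Endo_7, which had the least of both (317 and 10.97 CPM). Rgs5 and Acta2, also on that marker list, went otherwise. Both were highest in Endo_2 (5356 and 1042 CPM), where Gstt1 was at 54.8 CPM. In the class as a whole Vtn was 1840 ± 195 CPM (SD, n = 3) at P21 and 3365 ± 654 (n = 6) in saline libraries, with no overlap, and Kcnj8 388 ± 86.3 and 307 ± 32.9 CPM. The part of pericyte RNA in the Gstt1 difference was not tested. P21 endothelial cells carry no cluster number, and a shift in the makeup of the class was not tested.

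Astrocytes gave values in the same direction that were not called. Gstt1 held 33.7, 107 and 52.4 CPM at P21 and 79.7 to 158 CPM in the 5 saline libraries with enough cells, a log2 change of 1.05 (SE 0.359, edgeR adjusted p = 0.190). Ass1 held 33.7, 48.4 and 96.0 CPM and then 88.7 to 164 CPM, a log2 change of 1.12 (SE 0.350, edgeR adjusted p = 0.148). The groups overlapped for both, and the 3 P21 libraries held 227, 42 and 52 astrocytes. In simulated counts of this comparison, 16.5% of genes changed by 1 on the log2 scale were called, against 69% in endothelial cells. Of genes left unchanged, 1 and 10 were called. The changed genes were drawn at random from all tested genes of the class, so these shares are not those of Gstt1 or Ass1. The other tests were of Tcap and Igfbp6 in endothelial cells, at 1.57 (SE 0.830, edgeR adjusted p = 0.234) and 1.04 (SE 0.656, edgeR adjusted p = 0.341), and Igfbp6 in microglia at 1.56 (SE 0.740, edgeR adjusted p = 0.446). Tcap in endothelial cells had 11 UMIs at P21 and 40 in saline libraries, and Igfbp6 in microglia 7 and 85. Batf3 in microglia had too few counts to test: the P21 libraries held 29.1, 95.01 and 0 CPM from 182 cells in all, and the saline libraries 12.1 to 26.6 CPM.

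**Figure D4:**
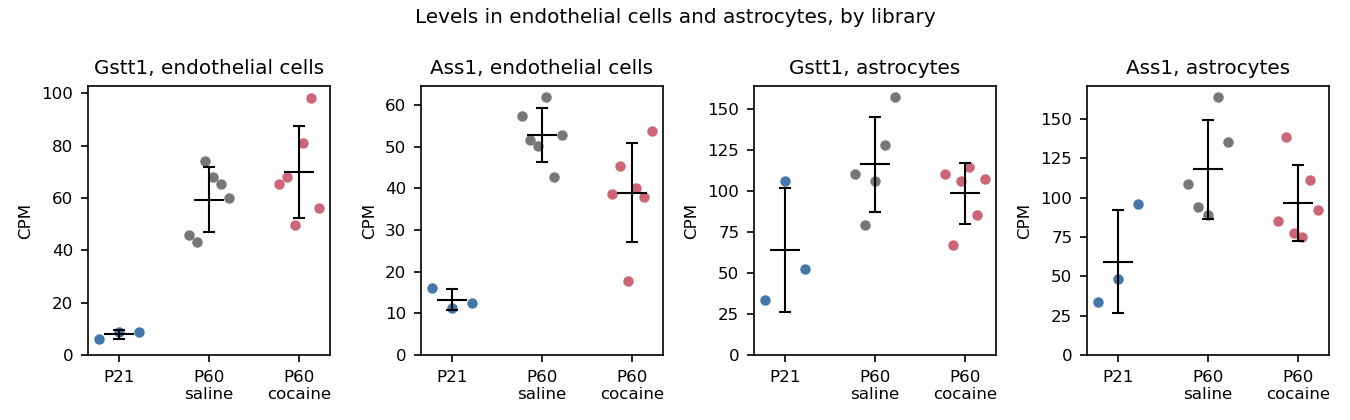
CPM of Gstt1 and Ass1 in endothelial cells and astrocytes by library; points are libraries with at least 10 cells of the class, bars the mean and whiskers the SD. In endothelial cells every P60 library lies above the P21 libraries (at most 8.92 CPM for Gstt1 and 16.1 CPM for Ass1), and in astrocytes the groups overlap.

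Cocaine was compared with saline at each period and averaged over the periods, in 1 model of the 6 adult groups. None of the 72 tests of these genes over 5 cell classes was called, nor any of the 204 tests in 14 single excitatory clusters (edgeR). At an unadjusted p below 0.05 there were 11 and 17. DESeq2 called 0 of the 276, with 17 at that unadjusted p, and gave no adjusted p for 15 of the 276. The share of all genes at an unadjusted p below 0.05 is not given, so nothing is read from these counts. Over all genes the same contrasts called 0.119% in classes and 0.337% in clusters. In simulated counts of the 15-day contrast in excitatory neurons, 86.5% of genes changed by 1 on the log2 scale were called. Those genes were drawn at random from all tested genes of the class and given the spread typical of their level. No such share was simulated for scarce genes alone, or for cocaine in other classes or single clusters.

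In excitatory neurons the means of saline and cocaine libraries lay within 1 SD of the saline libraries for every gene. Averaged over periods, the log2 change of Ass1 was 0.00 (SE 0.074; within ± 2 SE, −0.15 to 0.15), that of Gstt1 −0.06 (SE 0.075, −0.21 to 0.09) and that of Igfbp6 −0.10 (SE 0.076, −0.25 to 0.06). The others were wider: Tcap −0.15 (SE 0.343), Espn −0.12 (SE 0.202), Batf3 −0.23 (SE 0.154) and Agmat −0.32 (SE 0.243). At maintenance Agmat held 2.77 and 1.25 CPM in the cocaine libraries and 4.48 and 3.99 CPM in the saline libraries, a log2 change of −1.10 (SE 0.455, edgeR adjusted p = 0.735). Batf3 held 5.80 and 4.36 CPM against 10.7 and 6.40 CPM, a log2 change of −0.72 (SE 0.290, edgeR adjusted p = 0.735). Both were lower in the 2 cocaine libraries than in the 2 saline libraries, but did not pass the adjustment, and at 15 days the log2 changes were 0.16 (SE 0.345) and 0.21 (SE 0.228).

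**Figure D5:**
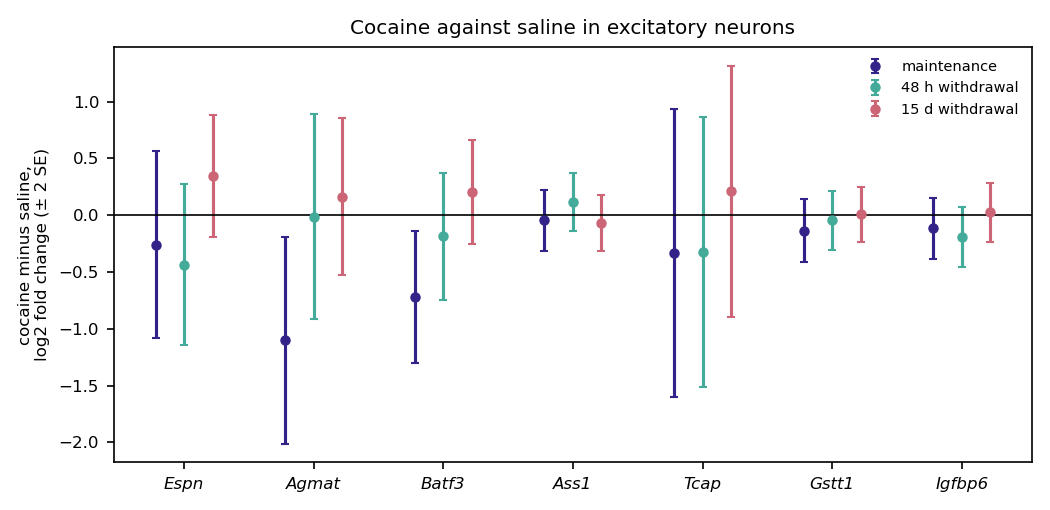
Cocaine minus saline in excitatory neurons at the 3 periods, as log2 fold change from edgeR; points are estimates and bars 2 standard errors on each side. Agmat and Batf3 at maintenance (−1.10 and −0.72) are the points whose bars stay below 0, and neither was called after adjustment.

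Among single clusters the lowest adjusted p belonged to Ass1 in Exc_12, at a log2 change of 1.14 averaged over periods (SE 0.279, edgeR adjusted p = 0.0541). The 6 cocaine libraries held 20.98, 17.9, 31.4, 35.8, 42.5 and 23.5 CPM there, from 6 to 46 UMIs. The 6 saline libraries held 6.93, 11.6, 9.34, 7.06, 24.1 and 17.3 CPM, from 2 to 27 UMIs. Cocaine libraries were higher than saline libraries of their period at maintenance and at 48 h, and at 15 days the groups overlapped. Among classes the lowest adjusted p was that of Tcap in endothelial cells at 15 days, a log2 change of −2.18 (SE 0.691, edgeR adjusted p = 0.377), where the 4 libraries held 1.56 to 8.50 CPM.

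Levels were also compared between periods. Maintenance, 48 h and 15 days of withdrawal were taken as separate sets of libraries. The 15-day libraries held the most excitatory cells (1393 to 2619 each), so that period and capture cannot be told apart. The paper describes collecting tissue at the end of maintenance and then after each length of withdrawal. Mice of later periods may therefore have been older, although all adult groups carry the same age label. The part of age in the differences between periods was not tested. In excitatory neurons Ass1 was 65.2 ± 5.21 CPM (SD, n = 4) at maintenance, 83.6 ± 7.46 at 48 h and 91.3 ± 6.69 at 15 days, with no overlap between the first and the last. The log2 change from maintenance to 15 days was 0.45 (SE 0.091, edgeR adjusted p = 0.0142). Igfbp6 went the other way, from 442 ± 37.0 CPM to 402 ± 48.0 and 343 ± 34.2, a log2 change of −0.40 (SE 0.093, edgeR adjusted p = 0.0296). Both changes were under the 1.5-fold threshold. Of the 11 tests of these genes in excitatory and inhibitory neurons, edgeR called 0 with that threshold, and 7 had an unadjusted p below 0.05. DESeq2 called 0, with 6 at that p. The share of all genes at that p is not given, so nothing is read from these counts.

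Over all genes 1.97% were called in excitatory and 1.99% in inhibitory neurons, and 4.52% in excitatory neurons with no fold threshold. With equal weight on the 14 excitatory clusters held by all 12 adult libraries, Ass1 was 67.8 ± 2.26, 79.1 ± 1.81 and 77.3 ± 3.66 CPM (SD, n = 4 each) and Igfbp6 456 ± 7.13, 456 ± 38.2 and 441 ± 28.8. Under that weighting Ass1 at maintenance (65.9 to 70.6 CPM) lay below both later periods, 48 h (77.4 to 81.5 CPM) lay within the range of 15 days (74.3 to 82.2 CPM), and the Igfbp6 periods overlapped. In 21 single clusters with values at both periods, Ass1 was higher at 15 days in 16 and Igfbp6 lower in 14. Every 15-day library lay above every maintenance library for Ass1 in 5 clusters, and below for Igfbp6 in 0. Clusters share libraries and the share of all genes is not given, so nothing is read from these counts.

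The other genes did not pass the adjustment between maintenance and 15 days. Gstt1 in excitatory neurons was 37.0 ± 4.03 CPM (SD, n = 4) and 43.5 ± 0.866, a log2 change of 0.19 (SE 0.0925, edgeR adjusted p = 0.254). Its mean was higher at 15 days in 20 of the 21 clusters, and every 15-day library lay above every maintenance library in 1. Batf3 and Agmat had log2 changes of −0.53 (edgeR adjusted p = 0.120) and −0.73 (edgeR adjusted p = 0.168), and Espn and Tcap of 0.48 (edgeR adjusted p = 0.272) and 0.55 (edgeR adjusted p = 0.513). In inhibitory neurons Tcap had the largest estimate, from 12.4 ± 15.1 to 36.8 ± 11.4 CPM, a log2 change of 1.61 (SE 0.610, edgeR adjusted p = 0.239). Its libraries overlapped. Ass1 and Gstt1 there had log2 changes of −0.34 (edgeR adjusted p = 0.344) and −0.28 (edgeR adjusted p = 0.792).

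In inhibitory neurons Igfbp6 was 18.0 ± 3.86 CPM (SD, n = 4) at maintenance, 22.8 ± 11.4 at 48 h and 46.4 ± 15.6 at 15 days, a log2 change of 1.36 (SE 0.392, edgeR adjusted p = 0.0642). Slc17a7, the transporter that marks excitatory neurons, moved the same way in these inhibitory cells, from 7.85 ± 5.77 to 14.2 ± 7.14 and 65.0 ± 6.11 CPM. In mature oligodendrocytes Slc17a7 was 12.9 ± 4.94, 21.3 ± 7.87 and 57.2 ± 18.9 CPM and Igfbp6 6.56 ± 3.11, 14.4 ± 24.3 and 20.2 ± 8.04 CPM. The part of excitatory RNA in the inhibitory Igfbp6 values was not tested. Whether the cocaine difference itself changed between maintenance and 15 days was tested in the same model. Of 11 tests edgeR called 0, with 2 at an unadjusted p below 0.05. DESeq2 called 0, with 1 at that p, and gave no adjusted p for 3. The share of all genes at that unadjusted p is not given, and 0% of all genes were called by edgeR. The largest such changes in excitatory neurons were those of Agmat at 1.26 (SE 0.572, edgeR adjusted p = 0.652) and Batf3 at 0.93 (SE 0.369, edgeR adjusted p = 0.620).

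Lists of related genes were drawn up for each of the genes, without the 7 themselves. Earlier results of these data were known by then, so the counts per list are descriptions. They were tested in excitatory neurons in P60 saline minus P21. Of all 13245 genes tested there, 8.18% were called higher and 11.1% lower, with a median log2 change of −0.00. Of 24 tested genes of arginine and polyamine metabolism, 3 rose and 5 fell (median −0.13). Ddah1, which degrades methylated arginines, fell from 49.0 ± 3.66 CPM (SD, n = 3) to 10.7 ± 2.47 (n = 6), a log2 change of −2.09 (SE 0.141, edgeR adjusted p = 1.61e-06). Slc7a3, a transporter of cationic amino acids, rose by 0.95 (SE 0.142, edgeR adjusted p = 0.000259), while Smox, spermine oxidase, and Arg2, a mitochondrial arginase, had log2 changes of −0.99 and −0.84.

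Glutathione transferases and related enzymes were the list with most genes rising, 7 of 20 against 1 that fell (median 0.47). Of all tested genes 8.18% rose and 11.1% fell. Gstt2, a close relative of Gstt1, rose from 2.19 ± 0.418 CPM (SD, n = 3) to 4.48 ± 0.575 (n = 6), a log2 change of 1.04 (SE 0.179, edgeR adjusted p = 0.000645). Gstm7 rose from 24.1 ± 1.48 to 42.4 ± 3.35 CPM (log2 change 0.88, SE 0.100, edgeR adjusted p = 4.78e-05). Gsta2 rose by 2.02 (SE 0.680, edgeR adjusted p = 0.0311) from a mean of 0.136 CPM to 0.705 CPM. Its levels were very low and overlapped, at 0 to 0.409 CPM at P21 and 0 to 0.967 CPM in saline libraries. Hpgds, a prostaglandin D synthase, fell by 1.45 on the log2 scale (SE 0.331, edgeR adjusted p = 0.00408).

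In the lists around Batf3, Espn and Igfbp6, genes fell and none rose. None of 11 tested Batf, Jun, Fos and partner genes rose and 8 fell (median −0.92). Junb fell from 232 ± 43.95 CPM (SD, n = 3) to 50.1 ± 21.3 (n = 6), a log2 change of −2.15 (SE 0.339, edgeR adjusted p = 0.00152), and Atf3 from 10.8 ± 5.06 to 3.14 ± 1.57 CPM. Irf8, which is also known from microglia and other myeloid cells, had a log2 change of −1.36 from a P21 mean of 2.39 CPM. Of 13 actin-bundling and related genes, 0 rose and 4 fell (median −0.23), among them Fscn1, a bundling protein of filopodia, from 146 ± 48.4 to 69.3 ± 6.19 CPM, and Marcks, from 262 ± 28.5 to 146 ± 15.0 CPM. The other 2 were Eps8 and Lcp1, at −1.97 and −0.90. Of 11 insulin-like growth factor genes, 0 rose and 6 fell (median −0.64). Igfbp4 fell from 49.2 ± 15.0 to 24.3 ± 3.32 CPM (log2 change −0.96, SE 0.170, edgeR adjusted p = 0.00106), and Igf1, Igfbp7 and Igfbp2 had log2 changes of −2.24, −1.21 and −0.94. Libraries of Igfbp7 and Igfbp2 overlapped between the ages. The excitatory sums also held RNA of other cells, and more of it at P21. Summed microglia markers (C1qa, Cx3cr1, P2ry12) were 8.72 to 51.3 CPM at P21 and 4.03 to 12.7 CPM in saline libraries, and endothelial markers 18.0 to 54.0 and 2.01 to 8.55 CPM. Their part in the falls of these lists was not tested, nor in that of Hpgds, which had a P21 mean of 1.28 CPM, or Lcp1, at 2.24 CPM. Of 11 sarcomere and Z-disc genes, Ankrd2 rose (1.44) and Trim54 (−2.61) and Synpo2 (−1.07) fell. Libraries of Ankrd2 overlapped, at 0.446 to 1.02 CPM at P21 and 0.369 to 2.82 CPM in saline libraries.

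In inhibitory neurons, where 5.73% of 8898 tested genes were called higher and 8.29% lower, fewer genes of the lists had enough counts. The class was also made up of different clusters at the 2 ages, Inhib_6 holding 162 of 962 cells at P21 and 22 of 563 in saline libraries. In libraries with at least 10 cells of a cluster, Inhib_2 held 341 cells at P21 and 37 in saline libraries, and Inhib_7 76 and 191. The part of this makeup in the changes that follow was not tested. Asl, which cleaves the product of Ass1 to give arginine, rose from 29.3 ± 4.04 CPM (SD, n = 3) to 49.3 ± 17.2 (n = 6), a log2 change of 0.71 (SE 0.210, edgeR adjusted p = 0.0238). It was 1 of 2 genes of that list that rose there, against 4 that fell of 19 tested. Nos1, the neuronal nitric oxide synthase, fell from 139 ± 6.85 to 58.6 ± 32.9 CPM (log2 change −1.19, SE 0.290, edgeR adjusted p = 0.0174), and Ddah1 and Ddah2 had log2 changes of −0.85 and −0.80. Libraries of Ddah1 overlapped between the ages. Of 5 sarcomere and Z-disc genes, Cryab, a small heat shock protein, rose from 180 ± 105 to 501 ± 67.3 CPM (log2 change 1.46, SE 0.338, edgeR adjusted p = 0.0193). Its P21 libraries spread from 89.6 to 296 CPM, and the part of RNA of other cells in its rise was not tested. Pdlim5 rose (1.26), with libraries that overlapped, and Nebl fell by 0.68 on the log2 scale. Of other lists, Marcks and Fscn1 fell among 10 actin genes, Gstm6 rose among 12 glutathione genes, and none of 8 insulin-like growth factor genes was called. Libraries of Gstm6 overlapped, at 3.59 to 6.55 CPM at P21 and 0 to 15.7 CPM in saline libraries. Without P21 library 2 or 3, 2 and 1 genes of the lists were called higher in place of 5 and 4 and 5 lower in place of 8, and without either 48 h saline library 3 were called higher.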

How the data were processed

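Tissue was dissociated with papain and cells were captured on the 10X Chromium platform, which counts molecules by their 3′ ends. The deposited files hold counts of UMIs per gene and cell, made by the authors with Cell Ranger on mm9. A deposited table gives the class and cluster of each retained cell, and the mitochondrial share of its UMIs as a fraction computed by the authors, and this fraction and a deposited normalized matrix were not used. The tissue label reads NAc while titles and source name PFC, and the Cell Ranger version is not given alike in the sources used here. The genes and the lists of related genes were chosen with earlier results of these data known.

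Counts of retained cells were summed per library and class or cluster, after leaving out 13 mitochondrial and 143 ribosomal protein genes (25989 genes kept). Libraries with fewer than 10 cells of a class were left out. Tests used edgeR 4.0.16 (TMM, low-count filter, robust quasi-likelihood, R 4.3.3) with Benjamini-Hochberg adjustment over all genes tested. P21 was compared with P60 saline, and 6 adult group means shared 1 spread estimate. Alternatives were DESeq2 1.42.0 (test and size factors), no filter, no fold threshold, 30 cells, these genes kept and leaving out each library. All 7 genes were named in every comparison, with up to 4 called genes with the largest change per list and the 2 genes most alike; some genes that this rule names are not reported here. The fits were tested on simulated counts with 200 changed genes. Doublets were removed only by the study's own filter. Replicates are pools of mice for P60. The paper gives too few P21 mice for a separate pair in each P21 library, and those libraries cannot be matched to mice. P-values, and the SD at P21, may therefore in part measure technical spread.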

Additional observations from a re-analysis of the deposited data

How the results depend on the processing

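The 2 calls in endothelial cells held under the other scaling, DESeq2, the cell minimum, all adult libraries, ribosomal and mitochondrial genes kept and each library left out, and cocaine and interaction calls stayed at 0 under those of these settings that apply. Without the low-count filter 4 of 31 tests by age outside neurons were called, the added ones being Ass1 (1.13) and Igfbp6 (1.85) in astrocytes, where 0.474% of all genes were then called higher. Summed neuron markers in those astrocytes were 131 to 309 CPM at P21 and 71.2 to 2103 CPM in saline libraries, and their part was not tested. Of 504 cocaine tests 1 was called, Ass1 in Exc_12 (1.15). The period comparison was not stable: 3 calls without the filter (Agmat −0.73 in excitatory neurons, Tcap 1.68 and Igfbp6 1.43 in inhibitory neurons), 2 with no fold threshold, and 0 to 2 when single libraries were left out. Tcap and Igfbp6 in inhibitory neurons made up those calls, without either cocaine library of 48 h (2 calls each), the first saline library of 48 h or the first cocaine library of 15 days (1 each). The cause was not tested. For cocaine and period, the share of all genes called without the filter or with a library left out is not given, so nothing is read from those counts. Leaving out libraries was not run for single clusters.

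By age, ratios of mean CPM in excitatory neurons moved by more than 1.5 times for Agmat (49.7) and Batf3 (19.1) after thinning, where few UMIs were left, for Agmat (12.2) and Tcap (1.03) with equal weight of clusters, and for Espn (40.4) and Batf3 (15.7) without the first P21 library. In inhibitory neurons, Espn aside, they did so for Gstt1 after thinning (3.20), with equal weight (3.29) and against the cocaine libraries (3.70), for Tcap against the cocaine libraries (0.249), and with equal weight for Ass1 (4.42), Tcap (3.01) and Igfbp6 (1.51). That inhibitory weighting used the 5 clusters with at least 10 cells in 2 or more libraries of each age, each library averaging those it held. Inhib_6 was left out, so the turned direction of Tcap rests on a change of clusters as well as of weights. Of the clusters used that could be compared by themselves, Tcap was higher at P60 saline in Inhib_7 and lower in Inhib_2 and Inhib_9. With no fold threshold 22 of the 90 tested genes of the related lists rose and 32 fell in excitatory neurons, where 19.3% of all genes were higher and 21.1% lower. No paired analysis was possible because replicate numbers were given in accession order and pair no libraries. Restriction to cells whose class and cluster labels match and equal weighting by period were chosen after seeing the data. Few UMIs limit the values of Espn, Agmat and Batf3, and few cells those of astrocytes, microglia and precursors at P21.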

Other observations

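Outside the planned comparisons, 2 of 7 tests of these genes between maintenance and 15 days were called in microglia, endothelial cells and mature oligodendrocytes, where 15.9%, 10.2% and 10.1% of all tested genes were called in either direction. Ass1 in microglia was 4.18 ± 3.76 CPM (SD, n = 4) at maintenance, 2.15 ± 2.88 at 48 h and 37.2 ± 18.4 at 15 days, a log2 change from maintenance of 2.67 (SE 0.775, edgeR adjusted p = 0.0192). Slc17a7 in the same microglia was 40.8 ± 30.6, 22.1 ± 19.2 and 118 ± 43.2 CPM, and the part of neuronal RNA in the Ass1 difference was not tested. Tcap in endothelial cells differed by 3.32 on the log2 scale (SE 1.12, edgeR adjusted p = 0.0486), at no more than 8.50 CPM in any library. Slc17a7 in the same endothelial cells was 6.50 ± 4.09, 23.4 ± 8.84 and 56.1 ± 4.74 CPM (SD, n = 4 each), and the part of neuronal RNA in the Tcap difference was not tested.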
